A study of Mus musculus with 8 samples.

Results

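The collagen chain genes of the mouse were followed from the mature oocyte to the implantation site. The members were all genes whose platform symbol is Col, a number, a and a number, read by a probe set annotated to a single gene: 42 chains of the 18193 genes on the arrays, covered by 82 probe sets. Of the 42 chains, 11 form fibrils, 6 build the network of basement membranes and 25 belong to other classes. For each chain the probe set that was brightest on average (mean log2 signal, 8 arrays) was taken to represent it.

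The series holds 8 Affymetrix arrays of polyadenylated RNA from 3 stages: MII oocytes, blastocysts and tissue that the labels name both as implantation site and as embryo from it. Each stage has a connexin 43 (CX43, gene Gja1) knockout, KO, and a wild type, WT, and the series title describes the depletion as directed to the oocyte. The sources used here do not name the driver of the deletion, the strain or the age, nor do they name the genotype of maternal cells at the implantation site. There are 2 arrays of each genotype for blastocysts and 1 for oocytes and for implantation sites, and nothing in the labels says that these came from separate animals, so p-values may measure only technical spread.

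Collagens are secreted as trimers of chains wound into a triple helix, and many trimers need chains from different genes, so that Col1a1 with Col1a2, and Col4a1 with Col4a2, make the common type I and type IV molecules. Fibrillar collagens give connective tissue its tensile strength, and type IV collagen forms the sheet-like scaffold beneath epithelia and around the trophoblast and endoderm of the early embryo. The stroma of the uterus remodels its fibrillar collagen when it turns into decidua around the implanting embryo.

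The values are MAS5 signals, scaled by the authors so that the 2% trimmed mean is 500 on every array. Precision is limited by the small number of arrays. No detection calls were used, so each array's background was taken as its brightest signal among 27 Bacillus control probe sets, called the control level here. It lay at 588 and 171 on the oocyte KO and WT arrays, between 322 and 560 on the blastocyst arrays, and at 131 and 174 at the KO and WT implantation sites. Gja1 read 375 and 553 in KO blastocysts, 9835 for WT replicate 1 and 574 for the array labelled WT replicate 2, which is close to the KO arrays. It read 28105 at the KO and 44493 at the WT implantation site, and was below the control level in both oocyte samples. All 7 measured trophectoderm markers were above the control level on every blastocyst array. Of 7 measured oocyte markers, 5 (KO) and 6 (WT) were above it on the oocyte arrays, and Gdf9 and Oosp1 were bright there (14153 to 77828). Of 7 measured cumulus and granulosa markers, 2 (KO) and 3 (WT) were above it on the oocyte arrays. At the implantation site all 8 decidual markers were above it on both arrays, whereas the trophectoderm gene Cdx2 (111 and 31.1) and the pluripotency gene Nanog (4.94 and 10.6) were below it, as was the trophectoderm gene Gata3. Over the lists, 4 of 7 trophectoderm markers were above it on both of these arrays, and 1 (KO) and 2 (WT) of 5 inner cell mass markers.

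Col4a1 and Col4a2 are shown by sequence because they are transcribed away from each other on chromosome 8, so that their promoter windows overlap, and because their products assemble into 1 molecule. Both windows run from 250 bases before to 50 bases after the annotated start (RefSeq, GRCm38.p6). The 78 bases that the windows share are in capitals.
Col4a1, chr8:11312777-11313076, minus strand: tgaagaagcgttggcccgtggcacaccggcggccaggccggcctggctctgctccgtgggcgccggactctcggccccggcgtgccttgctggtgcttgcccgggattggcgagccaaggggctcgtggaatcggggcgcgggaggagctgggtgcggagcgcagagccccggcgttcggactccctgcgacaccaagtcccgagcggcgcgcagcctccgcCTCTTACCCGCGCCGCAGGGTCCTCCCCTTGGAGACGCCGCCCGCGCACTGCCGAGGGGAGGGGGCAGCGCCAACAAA
Col4a2, chr8:11312555-11312854, plus strand: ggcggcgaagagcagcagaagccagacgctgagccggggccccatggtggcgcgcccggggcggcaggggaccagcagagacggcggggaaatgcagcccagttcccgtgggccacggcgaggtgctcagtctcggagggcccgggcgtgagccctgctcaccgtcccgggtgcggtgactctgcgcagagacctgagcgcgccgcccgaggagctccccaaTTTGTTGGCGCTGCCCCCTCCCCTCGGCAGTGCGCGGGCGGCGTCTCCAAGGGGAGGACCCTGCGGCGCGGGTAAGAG
On either strand, CCAAT occurs once in each of these windows, and TATAAA in neither. GGGCGG occurs 1 time in the Col4a1 window and 3 times in that of Col4a2. Of the chains, 33 had a promoter window, and GGGCGG was found in 22 of their 36 windows (61.1%) against 35.7% of all 32851 windows of that length. CCAAT was found in 36.1% of the collagen windows against 37.4% of all, and TATAAA in 13.9% against 13.6%. These are matches of letters only.

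Of the 42 chains, 8 exceeded the control level on the oocyte KO array and 20 on the oocyte WT array. On the blastocyst arrays 6, 8, 8 and 12 chains exceeded it (KO 1, KO 2, WT 1 and the array labelled WT replicate 2). By their representing probe sets, 3 did so on all of them: Col4a1, Col6a2 and Col6a3. Another probe set of Col6a2, given further below, was below it on both KO blastocyst arrays. At the implantation site 27 chains exceeded it in the KO and 23 in the WT, 21 of them on both arrays. Over all genes, the share above the control level was 30.4% and 57.2% on the oocyte KO and WT arrays, 35.1% to 46.9% on the blastocyst arrays, and 59.5% and 60.8% at the implantation site. A total of 7 chains were below it on all 8 arrays: Col4a3, Col4a4, Col6a5, Col9a2, Col17a1, Col23a1 and Col26a1.

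**Figure D1:**
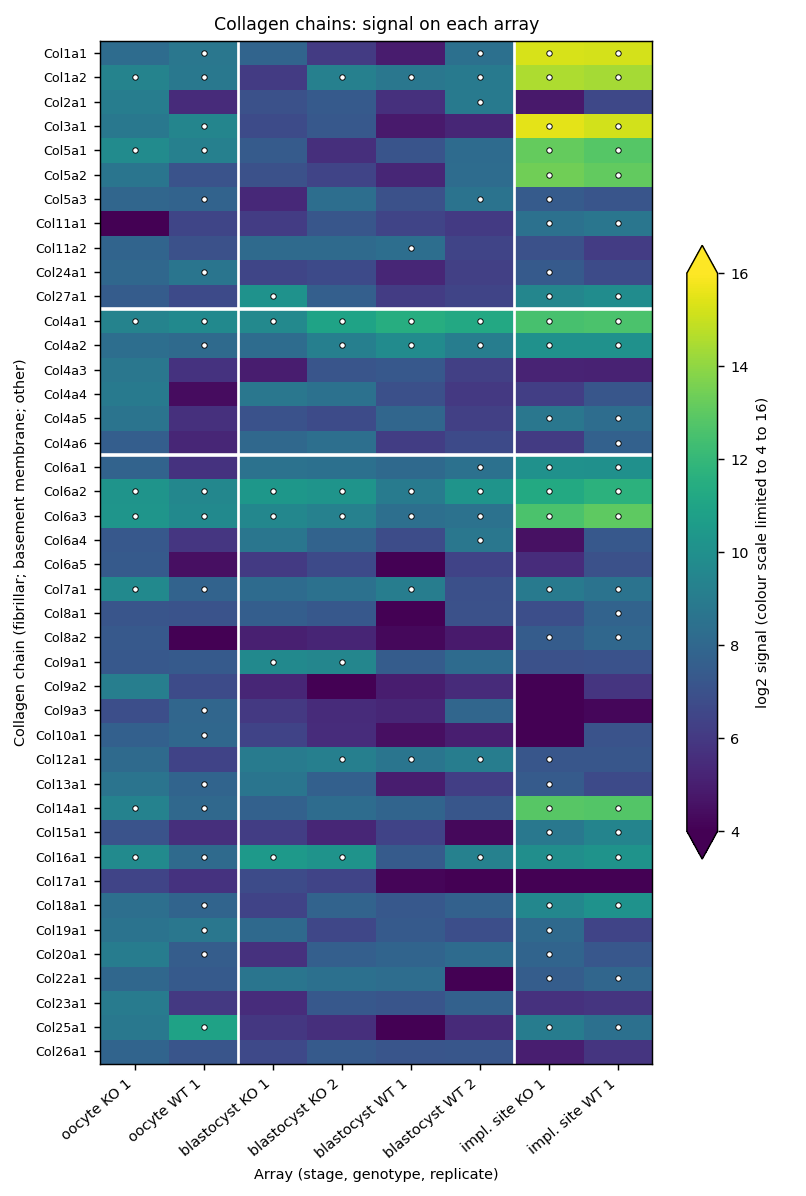
Signal of the 42 collagen chains (rows, by class) on the 8 arrays (columns), as log2 signal in colour. Each chain is shown by its representing probe set, and a white dot marks a signal above the control level of that array. Colours are to be read along a row: Col1a1, Col1a2, Col3a1, Col5a1, Col5a2 and Col14a1 are brightest at both implantation sites, and Col4a1, Col6a2 and Col6a3 carry dots on all 8 arrays.

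The differences between stages were tested for the 24 chains that passed the filter on low signal (mean over all arrays in the upper 50% of probe sets), within a fit over 11746 genes. Of these, 10 chains were higher at the implantation site than in blastocysts and 1 was lower, whereas 15.3% of all genes tested were higher and 20.0% lower (limma, adjusted p under 0.05). The median difference of the 24 chains was 1.54 on the log2 scale, against -0.35 over all genes tested. The filter used the mean over all arrays, so a chain bright at the implantation site could pass through those arrays. Col3a1, Col4a5 and Col5a2 passed only in this way. Counts of higher chains and this median therefore follow in part from the filter. Against oocytes, 11 chains were higher and 0 lower (13 and 0 at an unadjusted p under 0.05), with 20.5% and 16.6% over all genes. The 18 chains that did not pass the filter include Col8a2, Col11a1, Col15a1 and Col25a1, which were above the control level on both implantation arrays.

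Of the 8 fibrillar chains tested, 5 rose at the implantation site: Col1a1, Col1a2, Col3a1, Col5a1 and Col5a2. Col3a1, the chain of type III collagen that mixes with type I in soft tissues, read 47005 and 37300 there (KO and WT), 106 and 156 in KO blastocysts, 29.1 and 38.9 in WT blastocysts, and 440 and 696 in oocytes. The blastocyst values all lay below the control level and the implantation values far above, without overlap. The log2 difference from blastocysts was 9.31 (SE 0.58, adjusted p = 1.97e-06, limma), and setting blastocyst values below the control level to that level gives a rise of at least 98.0-fold.

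Both chains of type I collagen, the main fibril of connective tissue, behaved alike in direction. Col1a1 read 39380 and 38262 at the KO and WT implantation sites, against 230 and 68.9 in KO blastocysts, 29.96 and 345 in WT blastocysts, and 305 and 436 in oocytes. Among the blastocyst arrays only the one labelled WT replicate 2 reached the control level, which was also 345. The difference was 8.42 (SE 0.82, adjusted p = 3.62e-05, limma), and with blastocyst values below the control level set to that level the rise was 90.9-fold. Col1a2 read 23306 and 21174 at the implantation site, 68.3 and 596 in KO and 434 and 486 in WT blastocysts, and 657 and 442 in oocytes. Its first KO blastocyst array stood apart from the other 3, which were above the control level, and the difference was 6.19 (SE 0.72, adjusted p = 0.000101, limma).

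Type V chains, which enter the core of type I fibrils and limit their diameter, split by gene. Col5a1 read 9323 and 7351 at the implantation site, 49.3 to 289 in blastocysts and 885 and 606 in oocytes, so that the blastocysts, all below the control level, were lowest. It was at least 19.4-fold higher at the implantation site than in blastocysts (log2 5.93, SE 0.62, adjusted p = 5.44e-05, limma). Col5a2, which neighbours Col3a1 on chromosome 1, read 10759 and 8865 against 39.5 to 301 in blastocysts and 411 and 134 in oocytes, at least 22.9-fold higher than in blastocysts (6.51, SE 0.76, adjusted p = 0.000106). Col5a3, the third type V chain, read 175 and 145 at the implantation site, within its blastocyst range of 41.6 to 377, with a difference of 0.01 (SE 0.94, adjusted p = 0.995).

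None of the other fibrillar chains passed. Col11a2 differed by -1.21 (SE 0.79, adjusted p = 0.249, limma), and Col27a1, which read 731 and 916 at the implantation site, by 2.09 (SE 0.86, adjusted p = 0.0804). Its first KO blastocyst array read 1108, against 71.0 to 197 on the others. Without that array, or with a common median or the mean of all probe sets, Col27a1 passed as higher. Col2a1, the chain of cartilage, read 27.9 and 96.8 at the implantation site, below the control level, and Col11a1, its partner in cartilage fibrils, read 360 and 420 against 65.3 to 148 in blastocysts. Col24a1 read 171 and 109 there against 39.0 to 102 in blastocysts, above the control level on the KO array only. Col2a1, Col11a1 and Col24a1 did not pass the filter and were not tested.

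**Figure D2:**
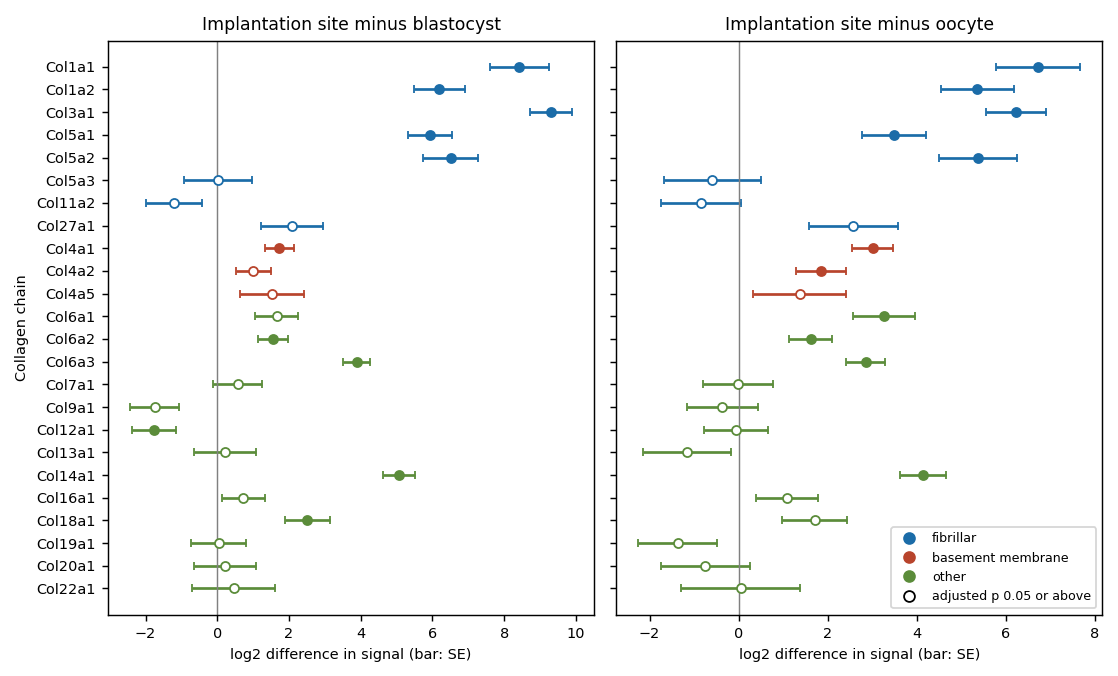
Log2 difference in signal (points, bars are SE) of the 24 tested chains between the implantation site and blastocysts (left) or oocytes (right), filled where the adjusted p is under 0.05. The fibrillar chains Col1a1, Col1a2, Col3a1, Col5a1 and Col5a2 lie between 3.50 and 9.31 in both panels, and the other fibrillar chains have open points.

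Among the basement membrane chains, Col4a1 rose stepwise over the stages by its representing probe set. Its other probe set, given further below, did not rise from blastocyst to implantation site. Col4a1 read 658 and 837 in oocytes (KO and WT), 796 and 1991 in KO blastocysts, 2833 and 2419 in WT blastocysts, and 5840 and 6125 at the implantation site, above the control level on all 8 arrays. The implantation values did not overlap those of blastocysts, while the first KO blastocyst lay between the oocyte values. The log2 difference was 1.72 between implantation site and blastocyst (SE 0.40, adjusted p = 0.00734) and 1.29 between blastocyst and oocyte (SE 0.40, adjusted p = 0.0217, limma). The first was 1.34 (adjusted p = 0.121) without the implantation site KO array. The second was lost when the second KO blastocyst array, the array labelled WT replicate 2, or either oocyte array was left out (adjusted p from 0.0515 to 0.175), with a common median (0.0860) and without the intensity trend (0.0685).

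Col4a2, which joins Col4a1 in a trimer of both chains, had smaller differences in the same direction. It read 319 and 280 in oocytes, 299 and 581 in KO blastocysts, 883 and 548 in WT blastocysts, and 1081 and 1072 at the implantation site. All implantation values exceeded all blastocyst values, yet the difference of 1.00 (SE 0.48) did not pass (adjusted p = 0.128, limma), whereas the difference of 1.85 from oocytes did (SE 0.56, adjusted p = 0.0223). That call was lost without either implantation site array or the oocyte WT array (adjusted p from 0.0565 to 0.138).

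The chains of the specialised type IV networks, known from kidney and muscle, were dim by their representing probe sets. Col4a5 read 439 and 308 at the implantation site against 76.4 to 246 in blastocysts (1.53, SE 0.90, adjusted p = 0.204). Col4a3 and Col4a4, neighbours on chromosome 1, were below the control level on every array, and Col4a6 exceeded it only at the WT implantation site, at 209.

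Of the 13 tested chains of the remaining classes, 4 rose at the implantation site: Col14a1, a fibril-associated chain, Col6a2 and Col6a3, chains of the beaded filaments of type VI around cells, and Col18a1. Col14a1 read 7574 and 6999 there, 148 to 301 in blastocysts and 633 and 265 in oocytes, at least 17.0-fold higher than in blastocysts, where all values were below the control level (log2 5.06, SE 0.44, adjusted p = 1.97e-05, limma). Col6a3 read 1215 and 820 in oocytes, 744 and 615 in KO blastocysts, 338 and 368 in WT blastocysts, and 6264 and 8339 at the implantation site. Its blastocyst values were the lowest and its implantation values the highest, without overlap (3.89, SE 0.38, adjusted p = 3.54e-05).

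Col6a1 and Col6a2 complete the type VI trimer and are neighbours on chromosome 10. Col6a1 read 1060 and 1052 at the implantation site, 275 to 368 in blastocysts, and 227 and 53.2 in oocytes. Its difference from blastocysts was 1.65 (SE 0.60, adjusted p = 0.0511) and that from oocytes 3.26 (SE 0.69, adjusted p = 0.00333, limma), at least 3.33-fold since both oocyte values were below the control level. Without either oocyte array, after quantile normalization, with a common median, with a pseudocount, without the intensity trend, with the mean of all probe sets or in the upper 30% of probe sets Col6a1 passed against blastocysts too. Col6a2 read 2533 and 3329 at the implantation site, 516 to 1306 in blastocysts, and 1185 and 755 in oocytes (1.55, SE 0.41, adjusted p = 0.0138). Without the WT implantation site array the difference of Col6a2 was 1.02 and did not pass (adjusted p = 0.169).

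Col18a1, a multiplexin of basement membranes that yields endostatin, read 746 and 1119 at the implantation site against 84.6 to 226 in blastocysts and 331 and 236 in oocytes. It was at least 2.14-fold higher than in blastocysts, all of them below the control level (2.51, SE 0.63, adjusted p = 0.0104, limma). It did not pass without either implantation site array (adjusted p = 0.0670 and 0.0868). Col15a1, the other multiplexin, read 440 and 682 there and 19.1 to 84.3 in blastocysts, without overlap. It did not pass the filter, and with no filter it was called higher, as was Col25a1.

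Col12a1, a fibril-associated chain, was the one called lower. It read 510 and 576 in KO and 405 and 541 in WT blastocysts, against 150 and 147 at the implantation site and 286 and 84.2 in oocytes (-1.76, SE 0.62, adjusted p = 0.0451). The call was lost when any 1 of the 6 blastocyst and implantation site arrays was left out. Col9a1, a cartilage fibril-associated chain, was lower by 1.75 without passing (SE 0.69, adjusted p = 0.0680), and without the first WT blastocyst array it passed as lower in place of Col12a1. Col7a1, Col13a1, Col16a1, Col19a1, Col20a1 and Col22a1 differed by 0.04 to 0.72 and did not pass. Among the untested chains Col8a2, of the hexagonal networks in the cornea and vessels, read 181 and 255 at the implantation site and 19.1 to 37.8 in blastocysts, and its partner Col8a1 120 and 229 against 15.8 to 192. Col9a3, a partner of Col9a1, read 9.41 and 18.4 at the implantation site and 39.0 to 245 in blastocysts. Col6a4 and Col10a1, a chain of growth cartilage, were above the control level on 1 array each, none of them at the implantation site.

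**Figure D3:**
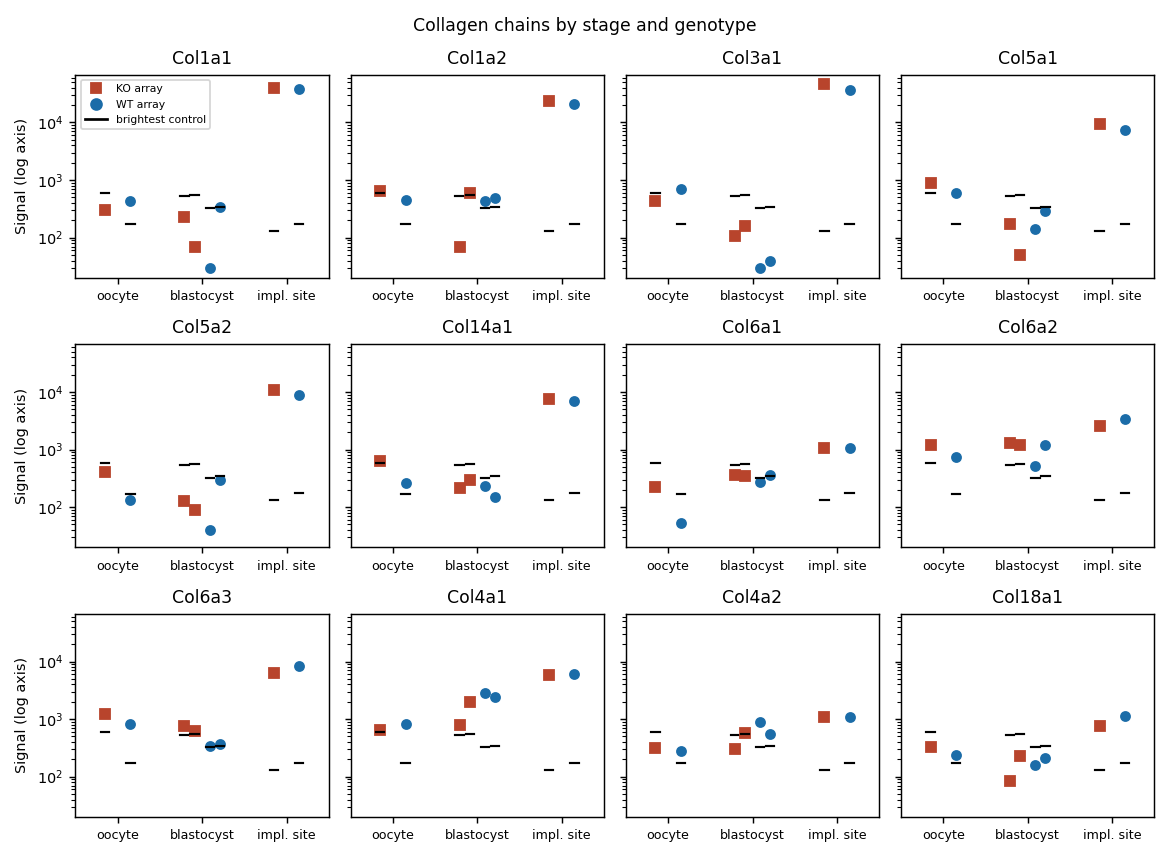
Signal (log axis) of 12 collagen chains on each array by stage, with KO arrays as squares, WT arrays as circles and the control level of each array as a black line. Both implantation site arrays lie above all earlier arrays for each of the chains, and the KO and WT points there lie less than 2-fold apart.

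Between oocytes and blastocysts few chains changed. Of the 24 tested, 3 were higher in blastocysts (26.9% of all genes) and 3 lower (18.6%). Those higher were Col4a1, Col6a1 (1.61, SE 0.60, adjusted p = 0.0465) and Col12a1 (1.70, SE 0.62, adjusted p = 0.0424), and those lower were Col3a1 (-3.07, SE 0.58, adjusted p = 0.00118), Col5a1 (-2.43, SE 0.62, adjusted p = 0.00753) and Col6a3 (-1.03, SE 0.38, adjusted p = 0.0427, limma). All blastocyst values of Col3a1 and Col5a1 were below the control level, so that the oocyte level of Col5a1 was at least 1.72-fold that of blastocysts. For Col3a1 the oocyte KO value was below it too, so no lower bound can be given. Of the chains higher in blastocysts, Col6a1 and Col12a1 had both oocyte values below the control level. The control level of the oocyte KO array exceeded all their blastocyst values, so against that array no direction can be given. Among the blastocyst arrays, Col6a1 exceeded the control level only on the one labelled WT replicate 2. With a common median, or without the second KO blastocyst array, the array labelled WT replicate 2 or the oocyte WT array, 0 chains were called higher. Without the oocyte KO array Col5a1 and Col6a3 were not called lower, and Col6a3 was not called without the second KO, the first WT or the WT replicate 2 blastocyst array or without the oocyte WT array either. Without the array labelled WT replicate 2, Col1a1 and Col5a2 passed as lower in blastocysts.

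Col25a1, a transmembrane chain studied in brain and motor neurons, did not pass the filter. Like Col3a1, Col5a1 and Col6a3 it read lowest in blastocysts. It read 441 and 1899 in oocytes (KO and WT), 9.51 to 62.2 in blastocysts, and 526 and 343 at the implantation site. Only the oocyte WT and both implantation arrays exceeded the control level. With blastocyst values set to that level, Col25a1 stood at 0.995-fold at the implantation site, so no rise can be given. Its other probe set read 94.0 and 20.1 in oocytes, below that level.

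Markers of other cells moved with these stage differences. The summed signal of the 8 decidual markers was 76506 and 64629 at the implantation site against 1038 to 2252 in blastocysts, and that of 6 fibroblast and stromal markers, all above the control level there, 20106 and 17918 against 1197 to 1691. Of these, Dcn and Lum are also in the list of fibril-associated proteins below. Smooth muscle markers summed to 17601 and 28093 against 1502 to 4312, with 4 and 5 of 5 above the control level. The 7 trophectoderm markers went the other way, from 52442 to 65627 in blastocysts to 5149 and 3096. In bulk samples more cells of a type and more RNA per cell cannot be told apart, and the part of cell composition in the collagen differences was not tested. Summed signal of 8 markers of primitive and parietal endoderm, which lays down much basement membrane, was 32724 and 22421 at the implantation site against 5507 to 8287 in blastocysts. The number of them above the control level differed little, at 6 on both implantation site arrays and 4 to 6 on the blastocyst arrays. On the oocyte WT array it was 7. For the Actb control, signal at the 3' end exceeded that at the 5' end by 27.9 and 21.2 times at the implantation site, 25.7 to 69.3 times in blastocysts, and 6.68 and 33.4 times in KO and WT oocytes, and the part of RNA quality was not tested either.

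Where a chain was read by several probe sets, these did not always give the same answer. Of 21 chains with at least 2 probe sets above the control level on some implantation site or blastocyst array, 15 had all of these probe sets on the same side of 0 and 6 had them on both sides. Among the chains that rose, a second probe set was also higher for Col1a1 (3.38), Col1a2 (7.47), Col3a1 (6.30), Col5a1 (2.44), Col5a2 (6.49), Col14a1 (2.72) and Col18a1 (4.89), as differences of mean log2 signal.

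For some chains a probe set that the rule did not choose gave a larger difference between the stages. For Col6a2 another probe set read 38601 and 25146 there and 95.4 to 356 in blastocysts, a difference of 7.58 against 1.55 by the representing one. For Col4a5 another read 4363 and 2908 against 5.69 to 138 (7.28 against 1.53), and for Col22a1 another read 1236 and 926 against 5.72 to 89.7 (5.26 against 0.45). Col4a1 went the other way: its second probe set read 958 and 1245 at the implantation site, within the blastocyst range of 519 to 2988, and 254 and 310 in oocytes. For Col12a1 another probe set likewise went the other way, at 549 and 501 at the implantation site against 35.4 to 339 in blastocysts (2.04 against -1.76), and its other 2 were below the control level at both stages. The positions of the probe sets in these transcripts were not used here. With all probe sets of a gene averaged, Col4a5, Col6a1 and Col27a1 were also called higher, and Col4a1 was not (0.56, adjusted p = 0.270).

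**Figure D4:**
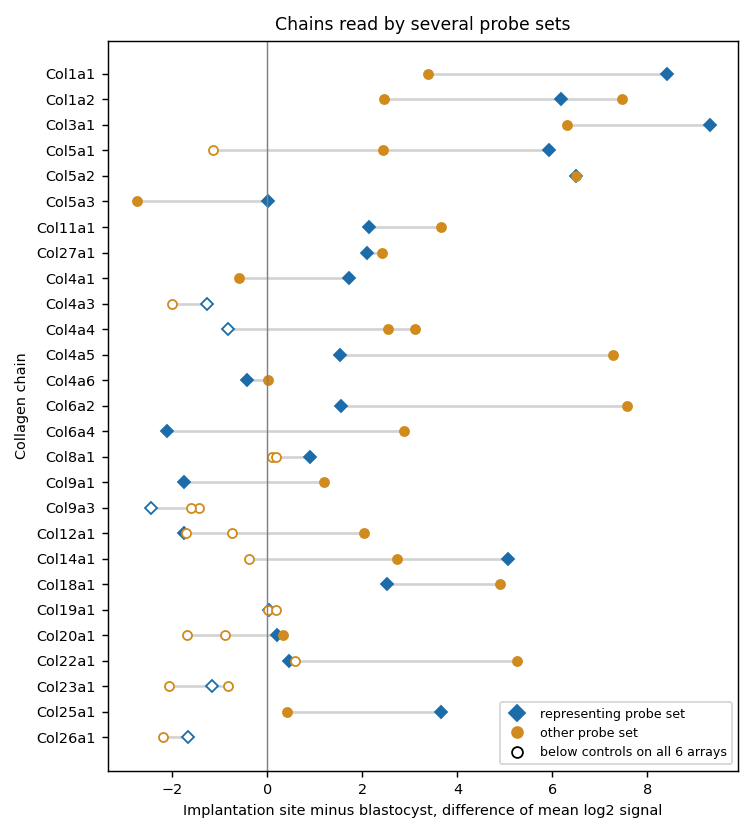
Difference of mean log2 signal between implantation site and blastocyst for every probe set of the chains that have several (diamonds, the representing one; circles, others; open, below the control level on all 6 arrays). Col6a2, Col4a5 and Col22a1 have another probe set far to the right of the representing one, and the Col4a1 and Col12a1 probe sets lie on both sides of 0.

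The enzymes and partners of collagen were read in 6 lists of 65 genes, of which 60 had a probe set and 46 were tested. At the implantation site 17 were higher than in blastocysts and 2 lower (15.3% and 20.0% of all genes), and the median difference was 1.10. The filter on the mean over all arrays applied here too. Ogn, Lum and Fkbp14 were among the genes that passed it only through the implantation site arrays. Counts of higher genes in these lists and the median therefore follow in part from the filter. Fibril-associated proteins had 6 of 9 higher, among them the leucine-rich repeat proteins Ogn (8.28, SE 0.76, adjusted p = 2.63e-05), Dcn (4.90, SE 0.71, adjusted p = 0.000435) and Lum (4.15, SE 0.88, adjusted p = 0.00406) and the collagen-binding protein Sparc (3.69, SE 0.42, adjusted p = 9.94e-05, limma). Ogn read 11502 and 7418 at the implantation site against 17.5 to 44.9 in blastocysts. The blastocyst values of Ogn and Lum were all below the control level, so their rises were at least 21.6-fold and 4.58-fold.

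Processing and crosslinking had 3 of 8 higher and 0 lower (4 and 0 unadjusted): Pcolce, an enhancer of the C-propeptide protease (4.87, SE 0.59, adjusted p = 0.000136), the crosslinking enzyme Lox (4.56, SE 0.98, adjusted p = 0.00456) and the propeptidase Adamts3 (2.55, SE 0.46, adjusted p = 0.00153, limma). Lox read 3152 and 3759 at the implantation site, 26.1 to 456 in blastocysts and 419 and 535 in oocytes. Blastocyst values of Pcolce and Adamts3 were all below the control level, which makes their rises at least 15.2-fold and 3.47-fold. Loxl1 did not pass (1.61, adjusted p = 0.0922). Folding and export had 3 of 8 higher and 1 lower. Serpinh1, the chaperone HSP47 that binds procollagen, read 9916 and 10195 at the implantation site against 826 to 1029 in blastocysts (3.46, SE 0.36, adjusted p = 5.12e-05), and Fkbp14 (4.12, at least 1.97-fold with all blastocyst values below the control level) and the general chaperone Hspa5 (1.84) rose too, while Fkbp7 did not pass (2.20, adjusted p = 0.0739). The ion channel gene Tmem38b fell by 4.20 (SE 0.59, adjusted p = 0.000354), from 1079 to 7403 in blastocysts to 154 and 267.

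Of 10 hydroxylation and glycosylation genes tested, 1 was higher (P4hb, the disulphide isomerase subunit of prolyl 4-hydroxylase, 0.84, adjusted p = 0.0412) and 1 lower (the galactosyltransferase Colgalt1, -1.41, SE 0.44, adjusted p = 0.0291, limma), beside 15.3% and 20.0% of all genes, with a median of -0.13. P4ha1, a catalytic subunit of prolyl 4-hydroxylase, read 655 and 1297 at the implantation site but did not pass (2.30, SE 0.91, adjusted p = 0.0694), nor did P3h4 (-1.22) and Plod3 (-1.05). Of 6 basement membrane partners, Pxdn, the peroxidasin that crosslinks type IV collagen, was the one higher (3.70, SE 0.46, adjusted p = 0.000174), at least 6.59-fold with all blastocyst values below the control level. Nidogen 1, Nid1, read 5043 and 4934 at the implantation site, 1646 to 3909 in blastocysts, and 239 and 284 in oocytes, and its difference from blastocysts did not pass (0.90, adjusted p = 0.0672). The differences of Tinagl1 (-0.82) and Hspg2 (-0.42) did not pass either. Of 5 collagen receptors tested, 3 were higher: Ddr1 (4.35, SE 0.55, adjusted p = 0.000180), Itgb1 (2.94, SE 0.34, adjusted p = 0.000101) and Ddr2 (1.60, SE 0.43, adjusted p = 0.0141), and the uptake receptor Mrc2 did not pass (2.90, adjusted p = 0.0608).

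Between KO and WT blastocysts no collagen chain passed the test. Of the 24 chains tested, 0 were called higher and 0 lower (limma, adjusted p under 0.05), where 0.102% and 0.0% of all genes were. At an unadjusted p under 0.05, 4 were higher (8.77% of all genes) and 1 lower (6.71%). The groups of 2 arrays did not overlap for 7 chains that were higher (23.8% of all genes) and 2 that were lower (25.3%). With 2 arrays per genotype a missed threshold does not show equal levels. The array labelled WT replicate 2 read close to the KO arrays for Gja1, as given above, so its genotype is uncertain. It was kept as labelled in this test. Other measures moved with genotype: the control level was 535 and 560 on the KO and 322 and 345 on the WT arrays, and the Actb 3' to 5' excess 25.7 and 39.0 against 69.3 and 69.1 times. The summed signal of 5 blood markers was 7724 and 14054 against 1071 and 4671, and that of 5 smooth muscle markers 4095 and 4312 against 1502 and 2634, with 1 or 2 markers of each list above the control level on any of these arrays. The sums of the oocyte, cumulus and granulosa, and fibroblast and stroma lists were also higher on both KO arrays. Lower on both KO arrays were the sums of primitive and parietal endoderm markers (5507 and 5817 against 8287 and 8180) and inner cell mass markers (6870 and 7439 against 14272 and 9544). The part of all these measures in the chain differences was not tested.

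Of the 4 chains above WT at an unadjusted p, Col9a1 read 834 and 727 on the KO arrays and 182 and 294 on the WT arrays (1.75, SE 0.51, adjusted p = 0.204, limma). Both KO values exceeded the control level and both WT values lay below it. Col16a1, a fibril-associated chain, read 1373 and 1153 against 173 and 620 (1.94, SE 0.61, adjusted p = 0.225), and without the array labelled WT replicate 2 its difference was 2.86 and passed (adjusted p = 0.0339). Col27a1 read 1108 and 197 against 71.0 and 88.5 (2.56, SE 0.92, adjusted p = 0.268), with only the first KO array above the control level. The transmembrane chain Col13a1 read 404 and 203 against 31.0 and 74.4 (2.57, SE 0.94, adjusted p = 0.271), all 4 below it.

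Col4a1 was the chain below WT at an unadjusted p, at 796 and 1991 against 2833 and 2419 (-1.06, SE 0.44, adjusted p = 0.307, limma). Its other probe set read 2039 and 2988 on the KO and 519 and 2365 on the WT arrays. By the mean of both the difference was 0.05. Col4a2 read 299 and 581 against 883 and 548, overlapping, with a difference of -0.74 (SE 0.52, adjusted p = 0.518). Col6a3 read 744 and 615 against 338 and 368, without overlap (0.94, SE 0.46, adjusted p = 0.362).

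**Figure D5:**
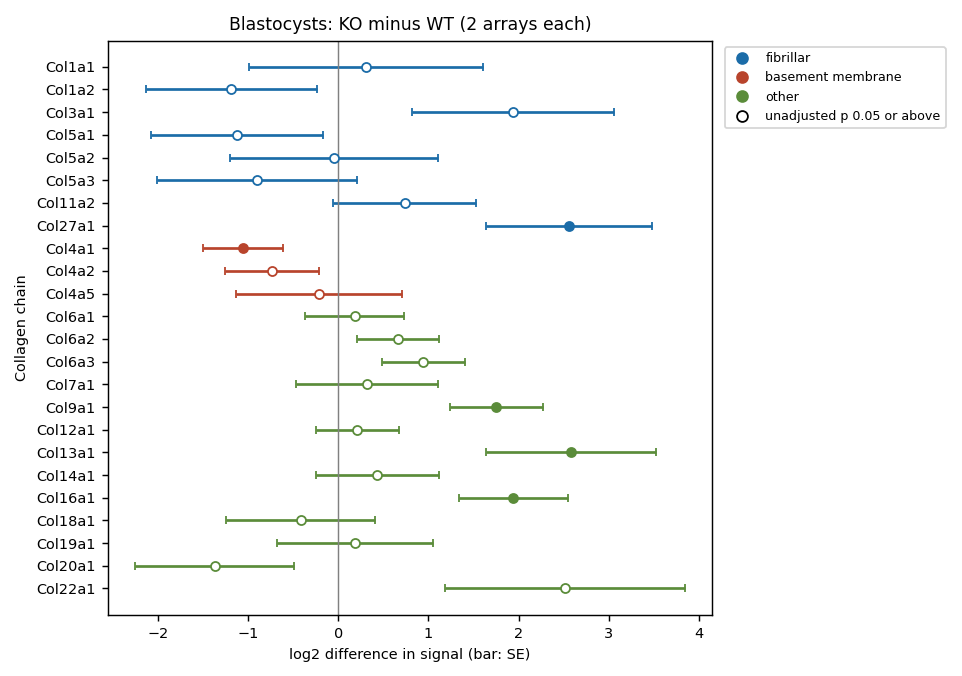
Log2 difference in signal between KO and WT blastocysts (points, bars are SE, 2 arrays each) for the 24 tested chains, filled where the unadjusted p is under 0.05. Filled points are those of Col9a1, Col16a1, Col27a1 and Col13a1 to the right of 0 and Col4a1 to the left, and none has an adjusted p under 0.05.

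Among the partner genes in blastocysts 0 of 46 were called in either direction (5 higher and 1 lower unadjusted, beside 8.77% and 6.71% of all genes). P4ha1 read 76.6 and 89.9 on the KO arrays and 310 and 580 on the WT arrays (-2.35, SE 0.73, adjusted p = 0.225), of which only the 580 exceeded the control level. Dcn (2.56, adjusted p = 0.223), Fmod (2.37, adjusted p = 0.268), Tmem38b (1.83, adjusted p = 0.187), Ddr1 (1.56, adjusted p = 0.304) and Hspg2 (0.85, adjusted p = 0.289, limma) were above WT at an unadjusted p. Plod2 (-0.77), Hspa5 (-0.70), Pcolce2 (1.84), Bmp1 (1.36), Nid2 (1.28) and Lair1 (1.55) had an unadjusted p above 0.05. Without the array labelled WT replicate 2, 1 partner gene passed as higher. A KO effect common to the stages was called for 0 chains (2 higher and 0 lower unadjusted; all genes 3.64% and 3.28%) and for 0 of all 11746 genes (limma), with 428 higher and 385 lower unadjusted. The 2 chains were Col16a1 (1.32) and Col13a1 (1.66).

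In oocytes, with no replicate of either genotype, 19 of the 24 chains read higher on the KO array, as did 6265 of all 11746 genes. For 8 of them the gap was 2-fold or more, and 0 were as far apart in the other direction (23.9% and 12.3% of all genes). Of all 42 chains, with the dim ones included, these counts were 18 and 3. The shares above cover only genes that passed the filter and are no measure for these counts. On at least 1 of the arrays 4 of the 18 and 2 of the 3 exceeded the control level. Col7a1, the chain of anchoring fibrils, read 832 against 223, Col16a1 862 against 285, Col14a1 633 against 265 and Col20a1 530 against 187, which are log2 differences of 1.90, 1.60 and 1.26 and, for Col20a1, a 2.83-fold one, whose KO value lay below the control level. Col25a1 (441 against 1899) and Col9a3 (117 against 251) read lower on the KO array, where both were below the control level of 588. For Col9a3 and Col20a1, whose KO values lie below that level, it exceeds the WT value, so no direction can be given. Control probe sets were also brighter on the KO array (median 110 against 39.1, brightest 588 against 171), and their part in these differences was not tested. With a common median these differences were 1.36 for Col7a1, 1.06 for Col16a1, 0.71 for Col14a1 and 0.96 for Col20a1 on the log2 scale.

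At the implantation site the chains that had risen were less than 2-fold apart between KO and WT, again with 1 array each. Differences were 0.04 for Col1a1, 0.14 for Col1a2, 0.33 for Col3a1, 0.34 for Col5a1, 0.28 for Col5a2, -0.07 for Col4a1 and 0.01 for Col4a2. Those of Col6a2, Col6a3 and Col18a1 were -0.39, -0.41 and -0.58. A gap of 2-fold or more was seen for 1 of the 24 chains with the KO higher and 0 with it lower (6.12% and 15.9% of all genes). This was Col19a1, at 273 against 89.0, of which the WT value lay below the control level. Among chains that did not pass the filter, Col4a6 read 68.4 on the KO and 209 on the WT array, the latter above the control level. A common median moved the median of all genes by 0.41 here, more than the listed differences of the type I, III, IV and V chains.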

How the data were processed

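The authors deposited a table of MAS5 signal intensity for 45101 probe sets on 8 arrays, with MAS5 named in the submitters' processing notes without a version. The linear values have a 2% trimmed mean of 500 on every array, tested on the values, and no further normalization was found. Of the probe sets, 34945 name a single gene and gave 18193 genes. Those naming several genes (932), those naming none (9160) and 64 controls were not used as genes. Genes whose brightest probe set had a mean of at least 151 were kept (11746). All tests used log2 signal in limma 3.58.1 (R 4.3.3) with an intensity trend, two-sided, adjusted by Benjamini-Hochberg over all genes kept: blastocyst KO against WT on 4 arrays, and stage and genotype as additive terms on 8 arrays. The control level used all 27 Bacillus control probe sets and assumes that no Bacillus RNA was added, a point the labels leave unstated.

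Members and lists were chosen with earlier results of these data known. Chains given in full were those called between stages, those at an unadjusted p under 0.05 in blastocysts, those at least 2-fold apart and above the control level in unreplicated stages, and their trimer partners; of each partner list, the 4 largest stage differences and the 2 smallest genotype p. P4hb, Kera, Col8a2, Col15a1, Col24a1 and the other probe sets were added after their values were seen. Alternatives were quantile normalization, a common median, a pseudocount of 50, no filter, the upper 30%, the mean of all probe sets, probe sets without suffix, no trend, the replicate number as a block and leaving out each array. Labels do not pair replicate numbers across genotypes, and the KO 1 minus KO 2 and WT 1 minus WT 2 differences of blastocysts were nearly uncorrelated over 11746 genes (r = 0.0182). Both fits were run on simulated data of 11746 genes. For a log2 change of 2, that of blastocyst KO against WT called 41.8% and that of implantation site against blastocyst 55.2% of 67 changed genes. Python 3.11.15 with matplotlib 3.10.9 made the plots.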

Additional observations from a re-analysis of the deposited data

How the results depend on the processing

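Without the array labelled WT replicate 2, 1 chain and 1 partner gene were called higher in KO blastocysts, and 0 of either without each other blastocyst array. With the replicate block the calls were 0 chains and 0 partner genes in each direction. The 1 chain lower at the implantation site than in blastocysts became 0 with a common median, the mean of probe sets, no filter, probe sets without suffix, quantile normalization or the upper 30%, 2 without the intensity trend, and 0 to 1 with 1 array left out. Of the 10 higher chains, alternatives and left-out arrays gave 7 to 12. Against oocytes 1 chain (Col9a3) was lower with no filter. The 3 chains higher in blastocysts than oocytes became 0 with a common median, 1 with no filter, probe sets without suffix or quantile normalization, and 0 to 2 with 1 array left out. The 3 lower ones became 1 to 4 with 1 array left out. The 2 lower partner genes became 1 with a common median or no trend, and 1 to 2 with 1 array left out. In oocytes the 8 chains 2-fold higher in the KO became 18 with no filter and 5 with probe sets without suffix or the upper 30%, and the 0 lower became 2 with a common median, quantile normalization or probe sets without suffix, 1 with the mean of probe sets and 3 with no filter. At the implantation site the 1 higher became 4 with a common median, 3 with quantile normalization and 0 in the upper 30%, and the 0 lower became 1 with the mean of probe sets and 7 with no filter. Signs turned for Col12a1 between implantation site and blastocyst (2.04) and Col3a1 between blastocyst and oocyte (0.0129) with probe sets without suffix, and for Col12a1 between blastocyst and oocyte (-0.19) and Col4a1 between KO and WT blastocysts (0.0495) with the mean of probe sets. These alternatives replace the probe set or the number of genes tested, and otherwise the cause was not tested. A common median moved the median of all genes by 0.36 between implantation site and blastocyst, -0.25 between KO and WT blastocysts and -0.54 between KO and WT oocytes. Chains below the control level have no ordered level.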

Other observations

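Some partner genes were bright in the oocyte and dim in the blastocyst. Ddr1, a receptor kinase for collagen, read 13848 and 18564 in KO and WT oocytes, 210 to 1651 in blastocysts, and 18236 and 10285 at the implantation site, and its fall from oocyte to blastocyst was -4.58 on the log2 scale (SE 0.55, adjusted p = 4.63e-05, limma). Kera, the corneal proteoglycan keratocan, read 1252 and 1292 in oocytes, 28.5 to 130 in blastocysts, and 18.4 and 13.8 at the implantation site. It was above the control level on the oocyte arrays only and did not pass the filter. Pcolce2, an enhancer of procollagen processing, read 740 and 859 in oocytes, 42.3 to 224 in blastocysts, and 193 and 361 at the implantation site, whereas its relative Pcolce read 116 and 402, 169 to 307, and 9110 and 4609. Both oocyte values of Pcolce2 were above the control level.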
